A study of Homo sapiens with 36 samples.

Results

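The protocadherins, the largest family of cadherin-type cell adhesion genes, were followed through cardiac differentiation of wild type and PERK KO human embryonic stem cells. Members were the rows of the gene count matrix whose symbol is PCDH and a number, or PCDHA, PCDHB or PCDHG (with the C-type letter where there is one) and a number. This gave 65 of 58721 genes, and no measured value was used to choose them. The clustered genes on chromosome 5 number 16 in the PCDHA cluster, 16 in PCDHB and 22 in PCDHG, and 11 members lie elsewhere or alone. All 65 had enough reads to be tested, among 19772 genes tested in all. A further 12 rows with protocadherin names (PCDH11X, antisense genes and pseudogenes among them) fall outside this naming rule and are not described.

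The cells were H1, an established human embryonic stem cell line, either wild type or PERK KO. PERK, encoded by EIF2AK3, is the kinase of the endoplasmic reticulum that phosphorylates eIF2alpha under protein-folding stress. Both genotypes went through one cardiac protocol: CHIR99021, a GSK3 inhibitor that activates Wnt signalling, on the first day, then the Wnt secretion inhibitor IWP2, in a cardiac medium that held heparin early and insulin late. Poly-A RNA was sequenced on days 0, 1, 2, 3, 5 and 10, with 3 libraries for each genotype and day, 36 in all. Neither the edit, nor the number of clones, nor whether replicates were separate cultures is given in the sources used here. The p-values therefore measure the spread between these libraries, which may be technical.

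Protocadherins are single-pass membrane proteins that bind like molecules on the next cell through their extracellular cadherin repeats, and most were studied in the brain. In the clustered families each gene has its own promoter and a long variable first exon. In PCDHA and PCDHG that exon is spliced to exons shared by the whole cluster, whereas PCDHB genes carry no shared exons; neurons choose promoters by DNA methylation and CTCF-cohesin looping, and the resulting set of isoforms labels a neuron's own branches. The non-clustered delta protocadherins work in cell sorting, tissue boundaries and cell movement in the embryo, often with the WAVE actin regulators.

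Library totals ran from 14002137 to 25860481 counts (median 18227374). Replicate 2 of PERK KO on day 0 stood apart, with a count-weighted effective transcript length of 1736 nt against 2342 to 2815 nt in the other 35 libraries, and replicate 3 of wild type on day 2 differed from its group mates. EIF2AK3 transcript was not called different at any day (adjusted p from 0.127 to 0.981): its mean was 21.9 CPM in wild type and 16.9 CPM in PERK KO on day 0, and 19.9 against 16.6 CPM on day 5. CPM relates a gene's count to the library size, here scaled by trimmed mean of M values (TMM). Since the edited position is not given, counts over the whole gene do not test the label, and PERK KO below means the libraries so labelled. Summed pluripotency markers stood at 5359 to 6007 CPM in wild type and 5622 to 7590 CPM in PERK KO on day 0. On day 10 the 8 cardiac markers summed to 11032 to 14401 CPM in wild type and to 98.1 to 358 CPM in PERK KO, all 8 called lower. Against its own day 0, where the sum was 21.5 to 33.4 CPM, PERK KO had all 8 called higher on day 10. Against wild type on day 10, the 7 tested early neural markers were all called higher in PERK KO. The full list of 8 summed to 834 to 1052 CPM in PERK KO and 31.3 to 39.9 CPM in wild type. Against its own day 0, where that sum was 69.5 to 85.6 CPM, PERK KO had 6 of the 7 called higher on day 10.

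Per unit of transcript length (TPM, averaged over the 36 libraries) the most abundant members were PCDHGC3 at 41.9 TPM and PCDHB5 at 41.8 TPM, followed by PCDH1 at 28.1 TPM, PCDH10 at 26.9 TPM, PCDHB2 at 22.6 TPM, PCDH18 at 21.6 TPM and PCDH7 at 17.9 TPM. PCDHA genes were lower as a group, with PCDHA6 the highest of them at 6.58 TPM. The lowest member was PCDHB1, the outlying first gene of its cluster, at 0.06 TPM. Each of the most abundant non-clustered genes changed its level many-fold over the days, so these averages hide most of the pattern.

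Members were called different between genotypes where the adjusted p of edgeR's quasi-likelihood test over all 19772 genes was under 0.05. On day 0 this gave 13 of 65 members, 3 higher and 10 lower in PERK KO, beside 21.1% of all genes tested (12.5% higher and 8.64% lower). On day 1 there were 11, 4 higher and 7 lower, beside 15.8% of all genes (8.11% and 7.72%). Day 2 gave 38, of which 25 were higher and 13 lower (all genes 42.6%, split 20.9% and 21.7%), and day 3 gave 32, of which 8 were higher and 24 lower (all genes 45.1%, split 21.9% and 23.2%). Day 5 gave 35, with 16 higher and 19 lower, against 59.0% of all genes (28.6% and 30.5%). By day 10 the count was 56 of 65, with 44 higher and 12 lower, where 67.3% of all genes were called (33.3% higher and 34.0% lower).

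Read against those shares, the totals on days 0, 1, 3 and 5 were near or below the background, that of day 2 was above it, and on day 10 the members called higher took up a larger share than all genes did. Over the 6 days 62 members were called at least once: 28 only as higher, 12 only as lower and 22 in both directions on different days. PCDHA14, PCDHGA2 and PCDHGB1 were never called. The day 0 count is the least stable: it was 7 without wild type day 0 replicate 2, 13 without both libraries that stood apart, and 3 when only the 6 libraries of that day were fitted. On day 1 it was 20 without both of those libraries and 28 with the 6 libraries of that day alone. The calls over all genes moved in these fits too. On day 0 they were 3004 of 20335 without wild type day 0 replicate 2, 5170 of 20269 without both libraries and 304 of 16248 with that day alone. On day 1 they were 4931 of 20269 without both libraries and 7355 of 16579 with that day alone.

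**Figure D1:**
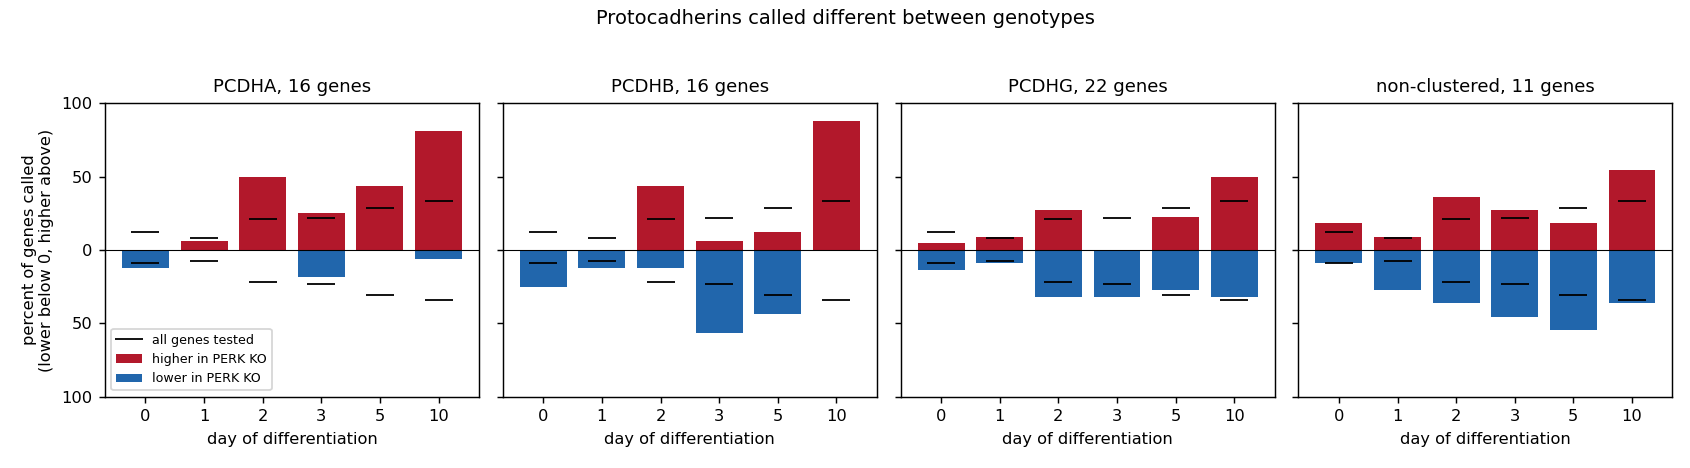
Percent of genes called different between PERK KO and wild type, day by day, in the PCDHA, PCDHB, PCDHG and non-clustered groups; red bars above 0 are genes called higher, blue bars below 0 genes called lower, and black dashes give the same shares over all 19772 genes tested. On day 10 the higher bars hold 13 of 16 PCDHA, 14 of 16 PCDHB, 11 of 22 PCDHG and 6 of 11 non-clustered genes; on day 3 the lower bars hold 9 PCDHB and 7 PCDHG genes.

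The non-clustered members showed the largest differences, and they went in opposite directions. PCDH7, PCDH8, PCDH17 and PCDH19, which came up in wild type between days 1 and 3, were low or late in PERK KO. PCDH10 rose in both genotypes by day 2 and was lower in PERK KO on day 1 and from day 3 on. PCDH18, in contrast, declined in wild type and rose in PERK KO. PCDH1 fell on the first day in both genotypes and was above wild type in PERK KO from day 2 on. By day 10 PERK KO held more PCDH1, PCDH9, PCDH17, PCDH18, PCDH19 and PCDH20 and less PCDH7, PCDH8, PCDH10 and PCDH12. Calls among the 11 in PERK KO were 2 higher and 1 lower on day 0, 1 and 3 on day 1, 4 and 4 on day 2, 3 and 5 on day 3, 2 and 6 on day 5 and 6 and 4 on day 10. Over all genes 21.1%, 15.8%, 42.6%, 45.1%, 59.0% and 67.3% were called on these days. In bulk RNA, fewer cells of a type and less RNA per cell cannot be told apart for any of these values.

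**Figure D2:**
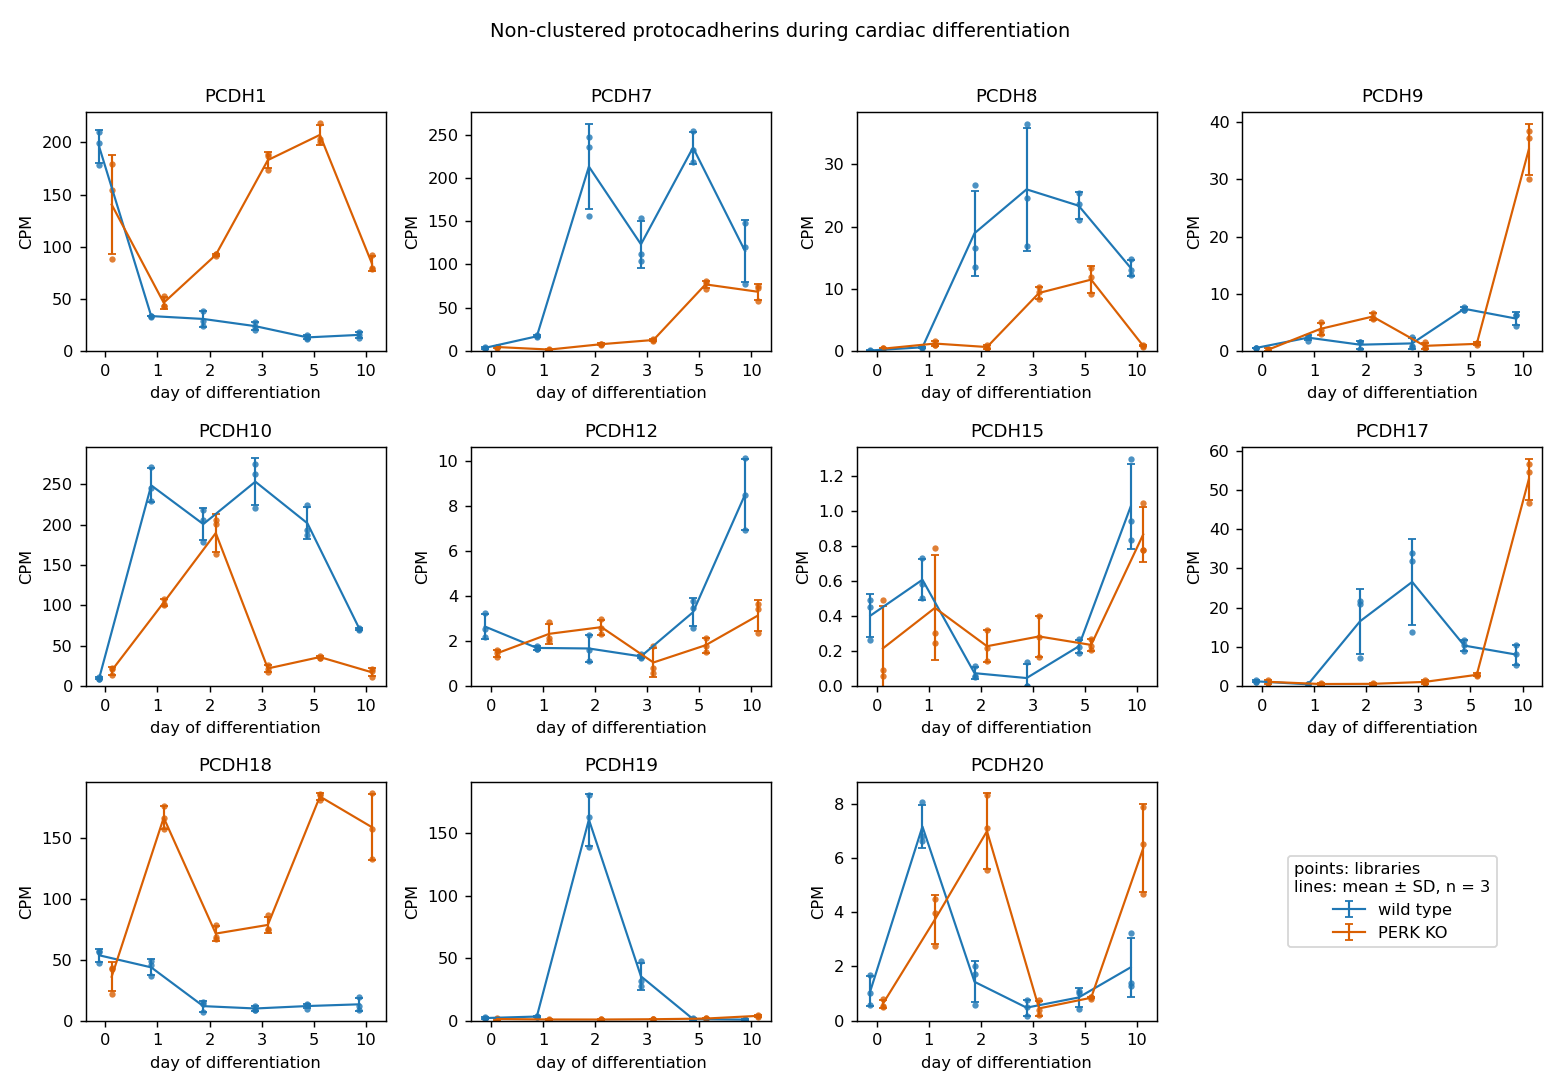
CPM of each of the 11 non-clustered protocadherins by day of differentiation, each panel with its own linear axis from 0; points are libraries and lines join the means, with bars of 1 SD over 3 libraries, wild type in blue and PERK KO in orange. The wild type peak of PCDH19 on day 2 (139 to 180 CPM) has no counterpart in PERK KO, and PCDH1 on day 5 stands at 200 to 218 CPM in PERK KO against 11.3 to 15.2 CPM in wild type.

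Among the delta protocadherins of the second kind, which have the shorter cytoplasmic tail, PCDH19 gave the most extreme difference. PCDH19 (chrX:100291644-100410273, minus strand, GRCh38) is a partner of N-cadherin and the gene of an X-linked epilepsy. In wild type its CPM in the 3 libraries was 1.98, 1.81 and 2.73 on day 0, then 180, 162 and 139 on day 2, 31.4, 47.7 and 27.4 on day 3, and 1.39, 1.94 and 0.803 on day 5. PERK KO libraries read 0.439, 1.18 and 1.41 on day 2 and 1.32, 1.24 and 1.18 on day 3. No library of PERK KO came near the wild type range on those 2 days. The log2 fold change was -7.29 ± 0.41 (SE) on day 2 (adjusted p = 3.63e-15) and -4.82 ± 0.38 on day 3 (adjusted p = 3.01e-12). On day 10 the order was turned, with PCDH19 at 3.3, 3.78 and 4.7 CPM in PERK KO and 1.61, 0.472 and 0.727 CPM in wild type (log2 fold change 1.99 ± 0.40, adjusted p = 6.75e-05; 2.68 without wild type day 10 replicate 1).

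PCDH8 (chr13:52842889-52848641, minus strand) is the human gene of paraxial protocadherin, which acts in the morphogenesis of paraxial mesoderm. Wild type libraries held 16.6, 13.6 and 26.6 CPM on day 2, 16.9, 36.5 and 24.6 on day 3, and 12.2, 14.8 and 13.1 on day 10. In PERK KO, PCDH8 stood at 0.494, 0.966 and 0.47 CPM on day 2, rose to 9.46, 8.29 and 10.3 on day 3 and was back at 0.891, 0.725 and 0.862 on day 10. The genotypes did not overlap on any of these days. Log2 fold changes were -4.88 ± 0.30 on day 2 (adjusted p = 2.67e-14), -1.48 ± 0.23 on day 3 and -4.00 ± 0.29 on day 10 (adjusted p = 3.5e-13). The call of PCDH8 on day 0 (higher in PERK KO, adjusted p = 0.0359) rests on wild type libraries of 0.0658 to 0.13 CPM and was lost under DESeq2 (adjusted p = 0.0545) and without any 1 of the day 0 libraries except PERK KO replicate 2 (adjusted p from 0.0561 to 0.105).

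Beside these early differences, the 8 markers of primitive streak and paraxial mesoderm summed to 2219 to 2964 CPM in wild type and 118 to 155 CPM in PERK KO on day 2, with 6 called lower and none higher; DLL3 averaged 1335 ± 289 CPM against 20.1 ± 1.96 CPM (SD, n = 3). None of the 8 was at 0 in either group at that day. Their part in the PCDH8 and PCDH19 results was not tested.

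PCDH10 and PCDH17, which link to the WAVE complex and guide axons in the brain, followed other courses. PCDH10 (chr4:133149315-133208606, plus strand) in wild type went from 8.89, 10.7 and 8.83 CPM on day 0 to 230, 245 and 271 CPM on day 1 and 276, 263 and 221 CPM on day 3. On day 0 PCDH10 was called higher in PERK KO, a call lost when only the libraries of that day were fitted (log2 fold change 1.00, adjusted p = 0.0704). PERK KO reached 101, 108 and 101 CPM on day 1 and 163, 205 and 200 CPM on day 2, and was at 26.1, 21.2 and 17.7 CPM on day 3. Wild type held PCDH10 at 179 to 276 CPM from day 1 to day 5 and at 69.6 to 71.9 CPM on day 10, while in PERK KO the level peaked on day 2, where the genotypes overlapped (wild type 179, 218 and 205 CPM; log2 fold change -0.08 ± 0.17, adjusted p = 0.73). On day 3 the log2 fold change was -3.55 ± 0.19 (adjusted p = 3.45e-16), and PCDH10 was still lower on day 5 (-2.49 ± 0.18) and day 10 (-2.07 ± 0.18).

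PCDH17 (chr13:57631810-57729311, plus strand) in wild type read 20.9, 21.7 and 7.01 CPM on day 2 and 33.9, 31.9 and 13.9 CPM on day 3, replicate 3 being the lowest both times. PERK KO libraries stood between 0.322 and 1.6 CPM on these days (log2 fold change -4.94 ± 0.43 and -4.69 ± 0.40, adjusted p = 8.08e-11 and 1.97e-11). On day 10 PCDH17 was higher in PERK KO, at 54.7, 56.8 and 46.8 CPM against 10.5, 8.09 and 5.42 CPM (log2 fold change 2.72 ± 0.34, adjusted p = 3.11e-08). So the same gene was lower in every PERK KO library early and higher in every one late.

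PCDH18 (chr4:137518918-137532494, minus strand), another gene of this kind, ran the opposite way. Wild type fell from 47.7, 57.1 and 56.1 CPM on day 0 to 9.81, 13.7 and 12.8 CPM on day 5. PERK KO began at 43.5, 22.1 and 42.5 CPM, the low value belonging to replicate 2 that stood apart, and rose to 176, 157 and 166 CPM on day 1 and 185, 181 and 186 CPM on day 5. From day 1 on all PERK KO libraries lay above all wild type libraries. The log2 fold change of PCDH18 grew from 1.93 ± 0.25 on day 1 (adjusted p = 8.57e-07) to 3.92 ± 0.27 on day 5 (adjusted p = 1.53e-13) and was 3.55 ± 0.27 on day 10.

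Of the delta protocadherins of the first kind, which have a longer tail with a phosphatase-binding motif, PCDH1 is an epithelial adhesion gene of airway and skin. PCDH1 (chr5:141853111-141879246, minus strand) lies on the same arm as the clusters but outside them. Wild type libraries fell from 178, 199 and 210 CPM on day 0 to 33.1, 33.8 and 33.6 on day 1 and 12.7, 15.2 and 11.3 on day 5. PERK KO also fell, from 154, 87.7 and 179 CPM on day 0 to 43.2, 52.8 and 42.8 on day 1, and then stood at 90.8, 92.5 and 93.1 on day 2 and 218, 200 and 203 on day 5. The drop on the first day was thus common to both genotypes. In PERK KO the level then rose above its own day 0 libraries on day 5, where it was called higher than on day 0. On day 10 it was called lower than on day 0. For PCDH1 the log2 fold change was 0.47 ± 0.18 on day 1 (adjusted p = 0.0881), 1.58 ± 0.19 on day 2, 3.99 ± 0.21 on day 5 (adjusted p = 1.88e-16) and 2.44 ± 0.20 on day 10. All 6 pluripotency markers were called higher in PERK KO on day 5, summing to 4541 to 4766 CPM against 984 to 1086 CPM. Within PERK KO that sum was 5622 to 7590 CPM on day 0 and 4283 to 5179 CPM on day 1. Against its own day 0, PERK KO on day 5 had 2 of these markers called higher and 4 lower. PCDH1 and PCDH18 were both called higher in that comparison. CDH1, the epithelial E-cadherin, stood at a mean of 597 CPM against 27.6 CPM on day 3. The part of these markers and of CDH1 in the PCDH1 and PCDH18 results was not tested.

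PCDH7 (chr4:30720415-31146805, plus strand), a protocadherin that binds protein phosphatase and in frog embryos acts in ectoderm, was among the strongest responders of wild type. Its libraries held 4.87, 2.85 and 3.01 CPM on day 0, 235, 247 and 156 CPM on day 2, 233, 218 and 254 CPM on day 5 and 148, 120 and 77.2 CPM on day 10. PERK KO held 8.39, 8.53 and 6.81 CPM on day 2, 78.3, 72.1 and 80.5 CPM on day 5 and 72.6, 58.1 and 74.8 CPM on day 10. The gap between genotypes was widest on day 2 and had narrowed by day 10, where PCDH7 was still called lower in PERK KO. On that day the lowest wild type library came close to the highest of PERK KO. Log2 fold changes of PCDH7 were -3.33 ± 0.25 on day 1, -4.75 ± 0.24 on day 2 (adjusted p = 2.2e-16), -3.27 ± 0.22 on day 3, -1.61 ± 0.20 on day 5 and -0.75 ± 0.20 on day 10 (adjusted p = 0.00153).

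PCDH9 (chr13:66302834-67230445, minus strand), best known from sensory cortex, was higher in PERK KO on day 2, lower on day 5 and higher again on day 10. On day 5 PERK KO read 0.977, 1.4 and 1.38 CPM against 7.72, 7.19 and 7.23 CPM in wild type (log2 fold change -2.55 ± 0.39, adjusted p = 1.54e-06). On day 10 it read 37.1, 38.4 and 30.1 CPM against 6.27, 6.34 and 4.36 CPM (2.64 ± 0.34, adjusted p = 7.36e-08). The annotation holds 4 antisense genes of PCDH9 outside the naming rule, and the strand setting of the counting is not given. The PCDH9 count was fractional in 0 of the 36 libraries. Whether reads from the antisense genes were counted to PCDH9 was not examined.

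The remaining 3 non-clustered genes were scarce. PCDH12 (chr5:141943585-141969741, minus strand), a gene of vascular endothelium, reached 8.47, 6.95 and 10.1 CPM in wild type on day 10 against 3.41, 2.33 and 3.62 CPM in PERK KO (log2 fold change -1.44 ± 0.26, adjusted p = 1.71e-05). The 7 endothelial markers stood at 500 to 627 CPM in wild type and 26.3 to 50.2 CPM in PERK KO at that day, with 6 called lower, none called higher and none at 0; their part in the PCDH12 result was not tested. PCDH20 was higher in PERK KO on day 2, at 5.54, 8.31 and 7.09 CPM against 1.73, 2 and 0.571 CPM (2.29 ± 0.39, adjusted p = 2.03e-05), and on day 10, at 6.5, 4.66 and 7.89 CPM against 3.23, 1.28 and 1.4 CPM (1.66 ± 0.38, adjusted p = 0.00033). PCDH15, the tip-link protein of inner ear hair cells, did not pass 1.3 CPM in any library, and its call on day 3 sets 0.168 to 0.399 CPM in PERK KO against 2 wild type libraries at 0 and 1 at 0.135 CPM; without PERK KO replicate 2 or wild type replicate 2 or 3 the adjusted p was 0.0529 to 0.0606.

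In the clusters the reads are hard to assign to one gene. The annotation (GENCODE 29, GRCh38) gives 15 of the 16 PCDHA genes the same 3 coding exons at their downstream end, of 59, 89 and 308 nt, and all 22 PCDHG genes another set of 3, of 59, 89 and 224 nt. PCDHA14, a pseudogene, lacks them. The first shared exon of each set is shown because a read inside it fits every gene of its cluster. The PCDHA exon lies at chr5:140978949-140979007 and the PCDHG exon at chr5:141494807-141494865, both on the plus strand and each identical in every transcript that holds it, here in lower case throughout.
PCDHA shared exon: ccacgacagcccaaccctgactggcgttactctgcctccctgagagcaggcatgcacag
PCDHG shared exon: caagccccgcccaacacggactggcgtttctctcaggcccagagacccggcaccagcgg

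RSEM estimates fractional counts for reads with several possible sources, and 94.7% of the PCDHA values above 0 and 87.5% of the PCDHG values were not whole numbers, against 68.5% in PCDHB, 3.31% in the non-clustered members and 21.2% over all genes. PCDHB genes share no coding exon, but their coding sequences are alike; the parts of exon sharing and of sequence likeness in these shares were not tested. Values of single clustered genes are therefore estimates whose split within a cluster is uncertain, while the summed count of a cluster's members does not depend on the split among them. Summed TPM and TPM shares do depend on it, since gene lengths differ. Cluster pseudogenes outside the naming rule, such as PCDHB17P and PCDHGB8P, are not in the sums. How reads were split between them and the members was not examined.

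Upstream of the variable exons the promoters of each cluster share short words. In the RefSeq promoters (GRCh38.p14, 250 bases before to 50 after the start; 56 of 65 members present) the 9-letter word held by the most genes was taken for each cluster, and then searched on both strands. It was GATGTCGCT in PCDHA, found in 9 of 13 promoters, GGTGGCGCT in PCDHB, found in 13 of 14, and GCGCCGCTG in PCDHG, found in 10 of 20. Over all 35116 promoters of the table the shares were 0.105%, 0.501% and 1.28%. No word occurred in another cluster or in the 9 promoters of non-clustered members. Since the words were picked from these promoters, their counts are a description, and a match is not a binding site. Stretches of 3 genes per cluster whose values are given below are shown, on the plus strand of chromosome 5, with the matched word in capitals.
PCDHA6, chr5:140827880-140827944: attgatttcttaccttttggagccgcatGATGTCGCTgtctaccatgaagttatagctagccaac
PCDHA2, chr5:140794764-140794828: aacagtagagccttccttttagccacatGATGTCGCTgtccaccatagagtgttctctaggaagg
PCDHA12, chr5:140875227-140875291: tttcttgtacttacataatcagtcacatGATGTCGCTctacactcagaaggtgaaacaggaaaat
PCDHB15, chr5:141245297-141245361: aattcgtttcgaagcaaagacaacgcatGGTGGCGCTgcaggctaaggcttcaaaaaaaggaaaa
PCDHB7, chr5:141172549-141172613: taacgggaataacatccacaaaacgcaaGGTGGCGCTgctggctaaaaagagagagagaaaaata
PCDHB16, chr5:141182293-141182357: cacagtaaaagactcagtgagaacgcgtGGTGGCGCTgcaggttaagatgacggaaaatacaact
PCDHGB4, chr5:141387601-141387665: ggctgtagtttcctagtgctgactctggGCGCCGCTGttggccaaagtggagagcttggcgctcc
PCDHGB6, chr5:141407908-141407972: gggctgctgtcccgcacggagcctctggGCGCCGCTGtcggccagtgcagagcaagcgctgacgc
PCDHGA10, chr5:141412915-141412979: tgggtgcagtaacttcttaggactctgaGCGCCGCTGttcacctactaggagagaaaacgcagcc

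Summed over its members, PCDHG was higher in wild type than in PERK KO on every day except day 1. The PCDHG sum in wild type was 134 ± 7.73 CPM on day 0, 343 ± 49.1 on day 2, 467 ± 71.1 on day 3, 485 ± 49.2 on day 5 and 437 ± 62.5 on day 10 (SD, n = 3), and in PERK KO 99.1 ± 28.7, 181 ± 9.45, 138 ± 2.50, 151 ± 0.944 and 272 ± 5.53 CPM on the same days. On day 1 the sums were 206 ± 8.15 CPM in wild type and 213 ± 14.7 CPM in PERK KO, and the libraries overlapped. PERK KO over wild type was 0.295 on day 3 and 0.311 on day 5. PCDHB was below wild type on days 1, 3 and 5 (ratios 0.804, 0.567 and 0.671) and above it on day 10, at 549 ± 12.8 against 324 ± 22.5 CPM. PCDHA was above wild type on day 2, at 163 ± 3.30 against 96.6 ± 23.4 CPM, and on day 10, at 213 ± 6.57 against 147 ± 15.8 CPM. The PCDHA sum was also above wild type on days 1 and 5 (ratios 1.14 and 1.40). Apart from PCDHG on day 1, the libraries of one genotype did not overlap those of the other in any of these sums.

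On day 0 replicate 2 of PERK KO gave the lowest sum in every group, for PCDHG 66.0 CPM against 115 and 116 CPM in its group mates. Without it the PCDHG ratio on day 0 was 0.862 in place of 0.738, and the PCDHA ratio 1.01 in place of 0.917. Leaving out replicate 3 of wild type on day 2, whose PCDHA sum was 69.5 CPM against 110 and 111 CPM, changed the PCDHA ratio at that day from 1.69 to 1.48.

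**Figure D3:**
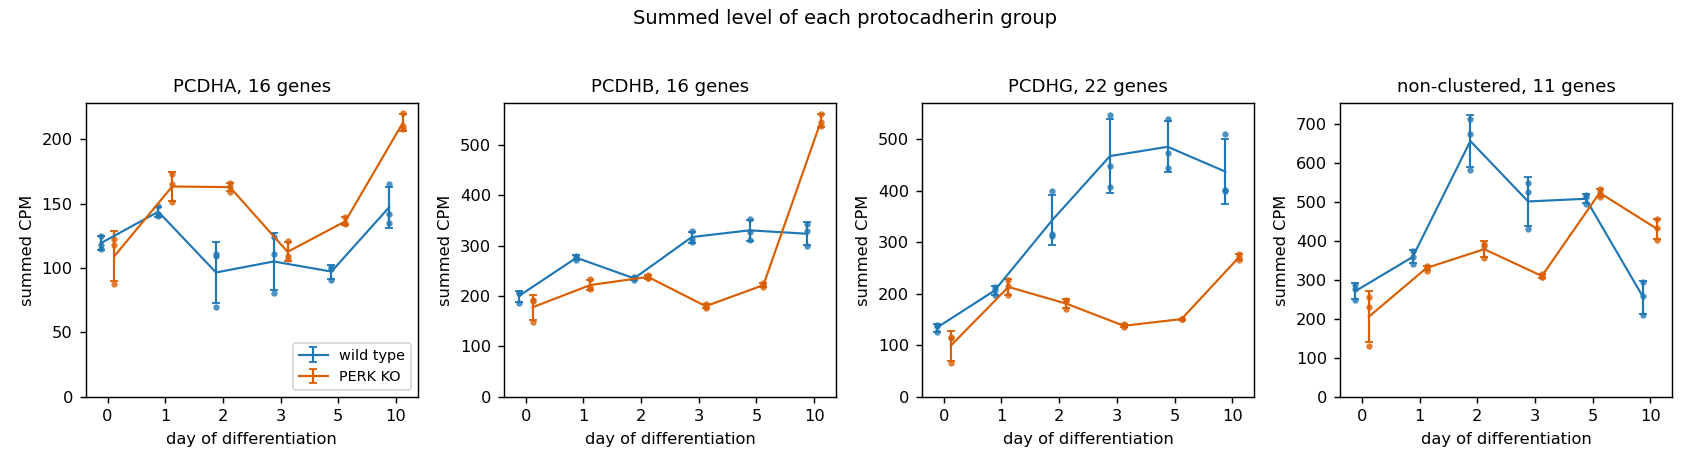
Summed CPM of the 16 PCDHA, 16 PCDHB, 22 PCDHG and 11 non-clustered genes by day, wild type in blue and PERK KO in orange; points are libraries, lines join means and bars are 1 SD over 3 libraries, each panel with its own axis from 0. The PCDHG panel separates from day 2 on, with wild type at 485 CPM and PERK KO at 151 CPM on day 5, and the PCDHB panel crosses between days 5 and 10.

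PCDHG calls went both ways on most days. On day 3, 7 of 22 were called lower and none higher: PCDHGB4, PCDHGB6, PCDHGB7, PCDHGA11, PCDHGC3, PCDHGC4 and PCDHGC5, which all lie from PCDHGB4 to the 3' end of the cluster. On day 2 there were 6 higher and 7 lower, on day 5 5 higher and 6 lower, and on day 10 11 higher and 7 lower. Those called higher on day 10 lay on both sides of PCDHGB4: PCDHGA1, PCDHGA4, PCDHGA5, PCDHGA6, PCDHGA7, PCDHGB2 and PCDHGB3 upstream of it, and PCDHGA8, PCDHGA9, PCDHGA10 and PCDHGA12 downstream. PCDHGA3, also upstream, was called lower on that day, as was PCDHGA6 on day 0. On day 0 the calls were 1 higher and 3 lower, and on day 1 2 and 2. By day, 18.2%, 18.2%, 59.1%, 31.8%, 50% and 81.8% of PCDHG genes were called. The shares over all genes were 21.1%, 15.8%, 42.6%, 45.1%, 59.0% and 67.3%, so PCDHG was below them on days 0, 3 and 5.

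PCDHGC3 (chr5:141475947-141512979), a C-type gene whose tail can bind the Wnt pathway scaffold Axin, was the most abundant PCDHG gene and was lower in PERK KO on all 6 days. Wild type went from 48.9, 53.1 and 56 CPM on day 0 to 140, 144 and 207 on day 2, 207, 170 and 183 on day 5 and 125, 125 and 191 on day 10. PERK KO stayed between 25.5 and 48.9 CPM in all its 18 libraries, with 28.8, 29.2 and 25.5 CPM on day 5. The 2 genotypes were apart at every day, and the gap opened from day 2 on as wild type rose. Log2 fold changes of PCDHGC3 were -0.87 ± 0.16 on day 0 (adjusted p = 0.00024), -0.52 ± 0.16 on day 1, -2.21 ± 0.16 on day 2, -2.65 ± 0.17 on day 3, -2.75 ± 0.17 on day 5 (adjusted p = 8.36e-15) and -2.17 ± 0.16 on day 10. The day 1 call of PCDHGC3 (adjusted p = 0.0225) was lost without PERK KO replicate 1 or 3 or wild type replicate 1 or 2 of that day (adjusted p from 0.0662 to 0.0888). As a share of the cluster's TPM, PCDHGC3 made up 42.1% to 58.1% in wild type by day, and in PERK KO it made up 44.1% ± 17.3 (SD, n = 3) on day 0 and 19.3% ± 3.01 on day 10.

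PCDHGC4, the C-type gene that cortical interneurons need to survive, behaved alike: 14.2, 18.4 and 20.5 CPM in wild type on day 3 against 1.93, 1.6 and 1.79 CPM in PERK KO (log2 fold change -3.31 ± 0.26, adjusted p = 2.31e-12). PCDHGB7 stood at 72.5, 82.4 and 103 CPM against 16.7, 19.7 and 19.1 CPM on day 3 (-2.22 ± 0.19, adjusted p = 4.11e-11) and at 77, 83.8 and 102 CPM against 48.4, 51.9 and 50.2 CPM on day 10 (-0.80 ± 0.19). PCDHGA11 and PCDHGB4 were lower as well, by log2 fold changes of -2.32 ± 0.24 and -1.32 ± 0.14 on day 3. The day 10 call of PCDHGA11 (-0.55 ± 0.23, adjusted p = 0.0325) was lost with the replicate number as a block (adjusted p = 0.0594), under a stricter filter on low counts (0.0575) and without PERK KO replicate 1 or 3 or wild type replicate 2 or 3 (0.0571 to 0.14).

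PCDHGB6 and PCDHGA10 departed from their neighbours early. PCDHGB6 was called on all 6 days, lower on day 0, higher on days 1 and 2, and lower from day 3. Its day 0 call was lost without wild type replicate 2 (adjusted p = 0.0612) and its day 1 call without PERK KO replicate 1 (0.0586) or wild type replicate 1 (0.0525). On day 2 its PERK KO libraries read 12.7, 14.1 and 13.5 CPM against 4.52, 5.01 and 5.97 CPM (1.38 ± 0.23, adjusted p = 1.17e-05), and on day 5 12.1, 13.3 and 12.4 CPM against 51.5, 49.3 and 44.5 CPM (-1.94 ± 0.22, adjusted p = 6.69e-09). PCDHGA10 read 18.8, 19 and 16.3 CPM in PERK KO on day 1 against 4.89, 3.3 and 5.81 CPM in wild type (1.95 ± 0.23, adjusted p = 2.03e-07), and the genotypes overlapped on days 3 and 5. PCDHGB5 was lower on day 1, at 7.52, 6.05 and 7.01 CPM against 14.3, 15.1 and 16 CPM (-1.14 ± 0.29, adjusted p = 0.005), while PCDHGA6 was higher on day 10, at 4.98, 6.53 and 7.33 CPM against 2.02, 1.48 and 1.29 CPM (1.96 ± 0.26, adjusted p = 1.32e-07).

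**Figure D4:**
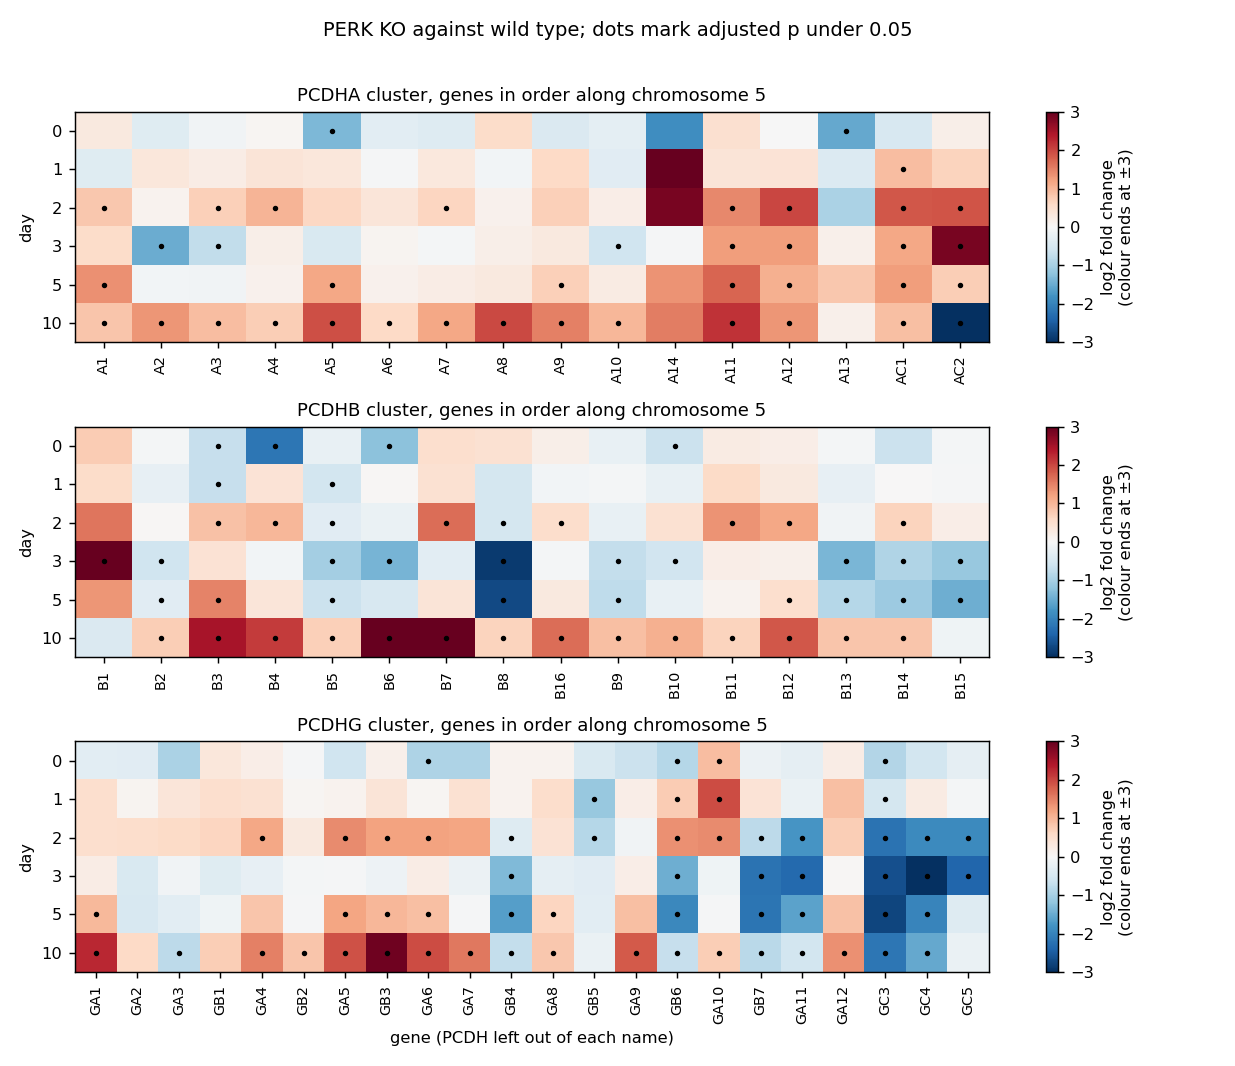
Log2 fold change of PERK KO against wild type for every gene of the 3 clusters (columns, in order along chromosome 5) at each day (rows); red is higher and blue lower in PERK KO, colours end at 3 in either direction, and dots mark genes called at adjusted p under 0.05. In PCDHG the blue block at the right from day 2 to day 10 holds PCDHGC3 and PCDHGC4, while on day 10 PCDHA is red except PCDHAC2, PCDHB is red in the 14 genes called, and the left of PCDHG holds most of the 11 called higher.

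In PCDHA no gene was called lower on days 1, 2 or 5, and the group median log2 fold change was 0.71 on day 2, 0.16 on day 3, 0.72 on day 5 and 1.07 on day 10, where the median over all genes lay between -0.03 and 0.00. Calls in PERK KO were 0 higher and 2 lower on day 0, 1 and 0 on day 1, 8 and 0 on day 2, 4 and 3 on day 3, 7 and 0 on day 5, and 13 and 1 on day 10. That was 12.5%, 6.25%, 50%, 43.8%, 43.8% and 87.5% of PCDHA by day. Over all genes it was 21.1%, 15.8%, 42.6%, 45.1%, 59.0% and 67.3%. PCDHA13 and PCDHA14 were the 2 not called on day 10. PCDHA11 was higher in PERK KO on 4 days: 6.05, 3.31 and 4.36 CPM in wild type against 19.2, 21.8 and 21.4 CPM in PERK KO on day 10 (2.17 ± 0.20, adjusted p = 1.25e-10), after 1.45 ± 0.19 on day 2, 1.25 ± 0.19 on day 3 and 1.75 ± 0.20 on day 5. In PERK KO its level on day 10 did not differ from its own day 0 by the test (log2 fold change 0.18, adjusted p = 0.416), and it fell in wild type by 1.51 on the log2 scale (adjusted p = 1.17e-07).

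PCDHA6, the most abundant gene of the cluster per length, differed little: on day 10 it stood at 23.7, 17.8 and 16.4 CPM in wild type and 29.5, 31.3 and 27.5 CPM in PERK KO (0.61 ± 0.15, adjusted p = 0.000936), and at earlier days it was not called. PCDHA10 and PCDHA3 were higher on day 10 by log2 fold changes of 0.99 ± 0.21 and 0.92 ± 0.23, after being called lower on day 3 (-0.59 ± 0.21 and -0.73 ± 0.23). The day 3 call of PCDHA10 was lost without PERK KO replicate 2 or 3 or wild type replicate 1 or 2 (adjusted p from 0.0523 to 0.0935), and that of PCDHA3 without PERK KO replicate 3 (0.0817) or wild type replicate 1 (0.0807). PCDHA2 was lower on day 3, at 5.27, 3.68 and 4.26 CPM against 15.4, 13 and 8.75 CPM (-1.49 ± 0.27, adjusted p = 2.96e-05), and higher on day 10 (1.32 ± 0.26, adjusted p = 6.03e-05). PCDHA12 was higher from day 2, where PERK KO libraries read 16, 14.5 and 13.5 CPM against 3.29, 5.01 and 2.75 CPM (1.99 ± 0.20, adjusted p = 1.98e-09). PCDHA5 went from lower on day 0 (-1.34 ± 0.29, adjusted p = 0.00112) to higher on day 10 (1.93 ± 0.28, adjusted p = 4.96e-07).

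The C-type genes at the downstream end of PCDHA are known for constant rather than random use in neurons, and PCDHAC2 for the spacing of serotonergic axons. PCDHAC2 (chr5:140966235-141012344) declined in wild type from 10, 8.74 and 8.27 CPM on day 0 to 0.63, 1.14 and 0.505 CPM on day 3 and then stood at 48.8, 37.7 and 57.2 CPM on day 10. PERK KO libraries held 4.99, 5.19 and 6.45 CPM on day 3 and 2.67, 4.35 and 3.62 CPM on day 10. It was thus higher in all PERK KO libraries on day 3 (2.86 ± 0.28, adjusted p = 4.5e-10) and lower in all on day 10 (-3.75 ± 0.24, adjusted p = 2.37e-14). On day 10 PCDHAC2 made up 28.8% of the cluster's TPM in wild type and 1.6% in PERK KO. PCDHAC1, its neighbour, was higher in PERK KO from day 1 on, by log2 fold changes between 0.90 and 1.86, with 7.18, 9.17 and 8.19 CPM against 4.35, 4.11 and 4.64 CPM on day 10.

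PCDHB calls turned between day 3 and day 10. They were 0 higher and 4 lower on day 0, 0 and 2 on day 1, 7 and 2 on day 2, 1 and 9 on day 3, 2 and 7 on day 5, and 14 and 0 on day 10, with medians of -0.58 on day 3 and 0.87 on day 10 on the log2 scale. By day, 25%, 12.5%, 56.2%, 62.5%, 56.2% and 87.5% of PCDHB genes were called. The shares over all genes were 21.1%, 15.8%, 42.6%, 45.1%, 59.0% and 67.3%. PCDHB5, with 29.4% to 47.9% of the cluster's TPM by group, read 103, 119 and 133 CPM in wild type against 59.1, 57.7 and 58.9 CPM in PERK KO on day 3 (-1.01 ± 0.11, adjusted p = 2.76e-09). On day 10 PCDHB5 read 89.8, 83.1 and 96.2 CPM against 147, 150 and 144 CPM (0.71 ± 0.11, adjusted p = 1.03e-06). Both sets of libraries were cleanly apart, in opposite order. PCDHB2 followed the same course, with -0.59 ± 0.10 on day 3 and 0.73 ± 0.10 on day 10.

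PCDHB8 changed sides between days 3 and 10. Its wild type libraries lay at 9.77, 10.9 and 8.02 CPM on day 3 and 9.37, 8.5 and 7.94 CPM on day 10, and PERK KO at 0.847, 1.29 and 1.79 CPM on day 3 and 14.6, 10.1 and 16.3 CPM on day 10. The wild type level of PCDHB8 was thus flat while PERK KO lay below it and then above it (-2.88 ± 0.23, adjusted p = 7.71e-12, and 0.67 ± 0.20, adjusted p = 0.00421). PCDHB7 was scarce in wild type throughout, at 0.583, 0.405 and 0.559 CPM on day 10, where PERK KO held 6.87, 7.93 and 6.9 CPM (3.77 ± 0.32, adjusted p = 1.76e-11). PCDHB3 rose to 21, 20.4 and 18.4 CPM in PERK KO on day 10 against 4.35, 3.24 and 3.07 CPM (2.48 ± 0.22, adjusted p = 3.41e-11), and PCDHB12 and PCDHB16 were higher by 1.85 ± 0.18 and 1.67 ± 0.16. PCDHB4 went from lower on day 0 (-2.17 ± 0.38, adjusted p = 0.00013) to higher on day 10 (2.11 ± 0.34, adjusted p = 2.51e-06).

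PCDHB15, at the downstream end, did not share the day 10 difference. It rose in wild type from 16, 20.8 and 19.1 CPM on day 0 to 68.9, 73.1 and 67.3 CPM on day 5 and 99.3, 81.7 and 96.2 CPM on day 10. In PERK KO it was 27.9, 24.1 and 23.4 CPM on day 5 (-1.47 ± 0.13, adjusted p = 1.99e-11) and 86.9, 85.7 and 80.7 CPM on day 10 (-0.13 ± 0.12, adjusted p = 0.356). With transcript length in the model the day 10 value of PCDHB15 was -0.43 and passed the test. PCDHB1 stayed at or under 1.15 CPM in every library, and its call on day 3 sets 0.31 to 0.706 CPM in PERK KO against 0 to 0.104 CPM in wild type.

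**Figure D5:**
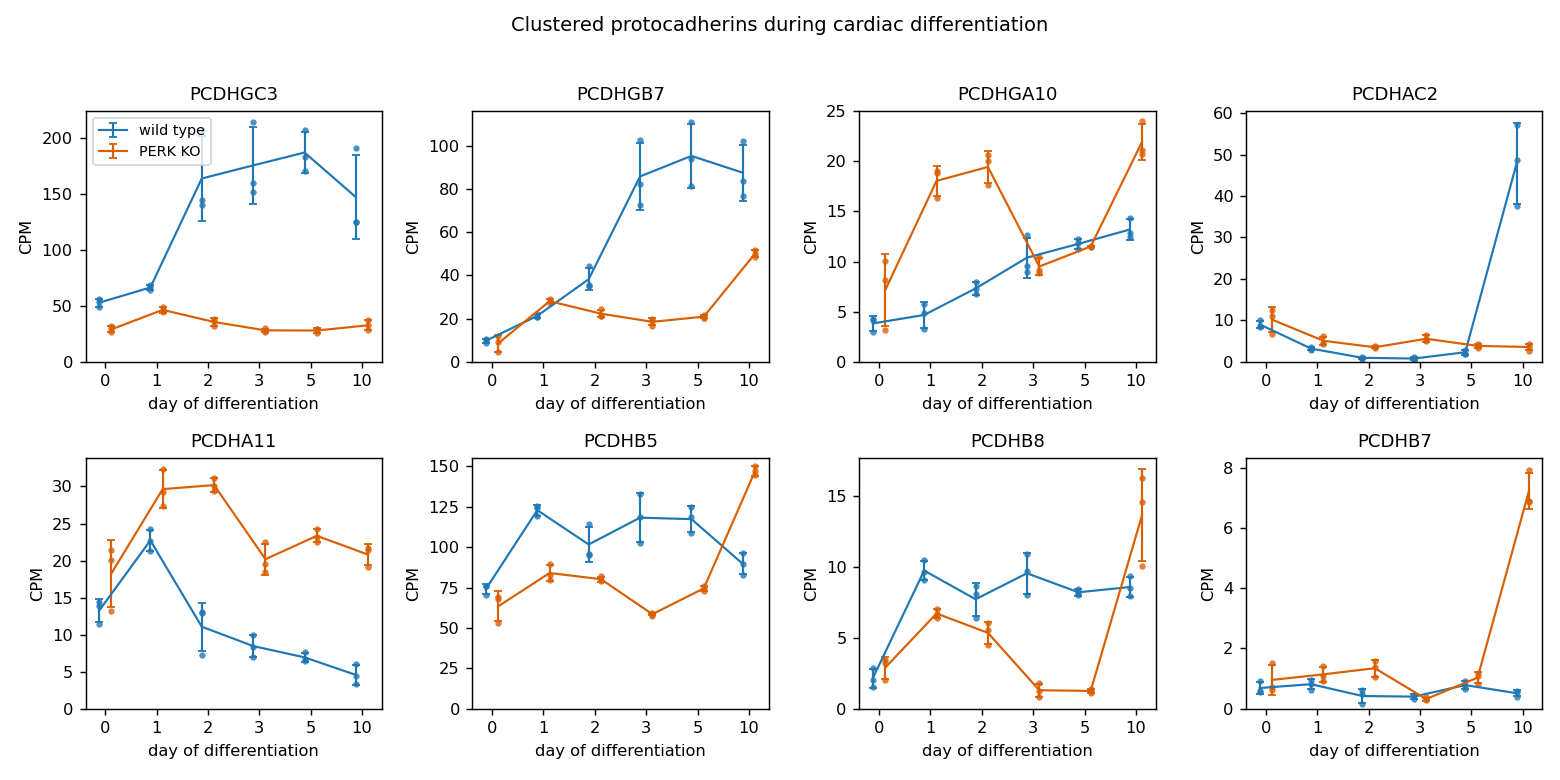
CPM by day of clustered genes described in the text, wild type in blue and PERK KO in orange, with libraries as points and means with bars of 1 SD over 3 libraries, each panel with its own axis from 0. PCDHGC3 separates from day 2 on, PCDHAC2 rises only in wild type on day 10 (37.7 to 57.2 CPM), and PCDHB8 dips in PERK KO on days 3 and 5 and lies above wild type on day 10.

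The day 10 differences stood beside a change in cell type markers. In PERK KO at that day 4 of 6 pluripotency markers were called higher and 1 lower (1838 to 1950 CPM summed against 212 to 268 CPM), and 3 of 6 tested neuron markers higher and 1 lower (179 to 230 against 24.1 to 25.7 CPM, ELAVL4 being at 0 in PERK KO). On day 0 the neuron sum was already 141 to 302 CPM in PERK KO and 248 to 257 CPM in wild type. Against its own day 0, PERK KO on day 10 had 2 neuron markers called higher and 2 lower. In the same comparison 1 pluripotency marker was called higher and 5 lower, from a sum of 5622 to 7590 CPM on day 0. Of the mesenchymal markers 4 of 5 tested were called lower (132 to 178 against 2190 to 3583 CPM), and of the endoderm markers 4 of 5 lower and 1 higher (311 to 525 against 1333 to 2062 CPM). The early neural and cardiac sums are given above. Their part in the higher levels of clustered protocadherins, and in that of PCDH9 and PCDH17, was not tested.

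Within each genotype, days were also compared with day 0, and these comparisons share the day 0 libraries of that genotype. In wild type 23 members were higher and 7 lower on day 1 (all genes 44.6%, split 20.9% and 23.7%), and 19 and 18 on day 2 (50.5%, split 25.4% and 25.1%). It was 26 and 12 on day 3 (56.8%, split 29.3% and 27.5%), 23 and 13 on day 5 (61.9%, split 31.4% and 30.5%) and 30 and 14 on day 10 (69.2%, split 34.9% and 34.3%). In PERK KO 37 were higher and 3 lower on day 1 (all genes 43.1%, split 18.0% and 25.1%), and 33 and 2 on day 2 (41.4%, split 17.5% and 23.8%). Then 12 were higher and 4 lower on day 3 (40.3%, split 18.5% and 21.8%), and 29 and 3 on day 5 (48.8%, split 21.5% and 27.3%). Calls in PERK KO numbered 59 on day 10, beside 61.8% of all genes (29.9% higher and 31.9% lower). Of those 59, 55 were higher than on day 0 and 4 lower, namely PCDH1, PCDHA1, PCDHAC2 and PCDHB1; 15 of 16 PCDHB genes and 19 of 22 PCDHG genes were among the higher ones. Fitted with only the libraries compared, the PERK KO counts were 22 on day 1, 6 on day 3 and 17 on day 5, and without PERK KO day 0 replicate 2 the day 5 count was 21. Over all genes the fits of the compared libraries called 4268 of 16505, 4186 of 16609 and 5973 of 16649 on these 3 days. Without that replicate 8173 of 20331 genes were called on day 5.

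Single genes differed in these courses. PCDHGC3 rose in wild type by log2 fold changes of 1.64 on day 2 and 1.83 on day 5, and in PERK KO the values were 0.30 (adjusted p = 0.136) and -0.05 (adjusted p = 0.823). PCDHB15 ended at 2.31 in wild type and 2.24 in PERK KO on day 10. PCDHGB6 ended at 2.86 and 3.03, and PCDHGB4 at 2.59 and 1.78. Whether the genotype difference itself changed over the days was tested by the genotype-by-day interaction, which called 57 of 65 members (15 of 16 PCDHA, 15 of 16 PCDHB, 16 of 22 PCDHG and 11 of 11 non-clustered), beside 80.9% of all genes. The smallest adjusted p values were those of PCDH10 (4.52e-15), PCDHAC2 (9.14e-15), PCDH19 (1.19e-14) and PCDH1 (2.07e-14).

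Genes around the protocadherins were taken from lists. Of 25 genes for the chromatin architecture and silencing of the clusters, 15 were higher and 5 lower in PERK KO on day 10, where 67.3% of all genes were called (33.3% higher and 34.0% lower). On the earlier days, in order, there were 0 higher and 3 lower, 1 and 2, 9 and 3, 2 and 3, and 11 and 4. The shares of all genes called on those days were 21.1%, 15.8%, 42.6%, 45.1% and 59.0%. DNMT3B, the methyltransferase that silences clustered promoters in the early embryo, averaged 1146 ± 59.4 CPM in PERK KO and 113 ± 12.1 CPM in wild type on day 5 (log2 fold change 3.34 ± 0.17). CTCF, the insulator protein that binds these promoters, averaged 98.9 ± 4.1 against 60.6 ± 2.29 CPM on day 10 (0.71 ± 0.09), and DNMT1 150 ± 3.57 against 74.9 ± 7.85 CPM (1.00 ± 0.12). Of 24 intracellular partners and processing enzymes, 11 were higher and 9 lower on day 10 (67.3% of all genes called, split 33.3% and 34.0%). WASF1, a WAVE subunit, was lower on day 5 (-1.43 ± 0.10), and CYFIP2, another, was higher on day 3 (2.21 ± 0.14). PTK2B, a kinase bound by clustered protocadherins, was lower on day 2 (-2.51 ± 0.20).

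Of 23 tested classical cadherins and catenins 9 were higher and 8 lower on day 10, near the 67.3% of all genes called, with CDH6 at 32.2 ± 1.92 CPM in PERK KO against 0.6 ± 0.38 CPM on day 5 (5.69 ± 0.32). Among 20 large atypical cadherins 10 were higher and 8 lower on day 10, beside the same 67.3%. They include CDH23, the tip-link partner of PCDH15, at 72.2 ± 14.7 CPM in PERK KO and 0.579 ± 0.163 CPM in wild type on day 10 (6.97 ± 0.33), and CLSTN2, at 1.66 ± 0.486 and 185 ± 10.9 CPM on day 3 (-6.80 ± 0.33). Of 20 tested genes next to or between the clusters on chromosome 5, 7 were higher and 8 lower on day 10, again near 67.3%. On the earlier days, in order, they gave 6 higher and 3 lower, 1 and 1, 1 and 6, 5 and 3, and 2 and 9. On those days 21.1%, 15.8%, 42.6%, 45.1% and 59.0% of all genes were called. TAF7, which lies between PCDHB and PCDHG, was higher in PERK KO on day 0, at 244 ± 35.9 against 108 ± 5 CPM (1.17 ± 0.11), while APBB3 was lower on day 5 (-1.86 ± 0.16).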

How the data were processed

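Paired-end poly-A RNA-seq of 36 libraries was used. Per the submitters' processing notes the authors named CASAVA, FastQC, STAR, RSEM and GRCh38 (hg38); no version or strand setting is given in the sources used here. The deposited matrix holds RSEM expected counts per gene, equal to the expected counts in the per-library files. The deposited TPM values served for levels between genes and the deposited effective lengths (unit score, in nt) for a length check; the deposited FPKM values were not used.

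Expected counts were rounded to whole numbers, filtered with filterByExpr (19772 genes kept), scaled by TMM (factors 0.778 to 1.14) and tested with edgeR's quasi-likelihood test (edgeR 4.0.16, limma 3.58.1, R 4.3.3) in 1 model of 12 groups with 24 residual degrees of freedom, with Benjamini-Hochberg adjustment over all genes and a threshold of 0.05; the biological coefficient of variation was 18.7%. CPM is over TMM-scaled library sizes. Sums over gene groups were described without a test. The test was checked on simulated data. Tables were made with Python 3.11.15 and pandas 2.3.3, figures with matplotlib 3.10.9.

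Named genes were EIF2AK3, every non-clustered member tested, the 4 members of each cluster with the highest mean CPM, the called member of each cluster with the smallest p in each direction and comparison, and the 3 genes of each other list with the smallest p. Members, lists and tests were chosen with earlier results of these data known. Groups and days come from the labels; the design text names days 0, 2 and 6, which differ from the labels. Alternatives were DESeq2 1.42.0, its size factors, other filters, the per-library files, the compared libraries alone, a length offset, a replicate block, TPM for sums, and leaving libraries out. Library totals of 14002137 to 25860481 counts limit precision for members under about 1 CPM.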

Additional observations from a re-analysis of the deposited data

Results flagged for a closer look

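The genotype difference changed over the days, by the genotype-by-day interaction of edgeR's quasi-likelihood test adjusted over all genes, for 37 of the members named by rule; 80.9% of all genes tested passed the same test. Non-clustered members gave adjusted p values of 4.52e-15 (PCDH10), 1.19e-14 (PCDH19), 2.07e-14 (PCDH1), 3.61e-14 (PCDH7), 4.71e-13 (PCDH17), 7.63e-13 (PCDH8), 3.26e-11 (PCDH18), 2.14e-09 (PCDH9), 1.4e-05 (PCDH20), 8.43e-05 (PCDH12) and 0.0228 (PCDH15). In PCDHA they were 9.14e-15 (PCDHAC2), 3.39e-07 (PCDHA5), 2.5e-06 (PCDHA11), 3.33e-06 (PCDHA12), 6.73e-06 (PCDHA2), 1.48e-05 (PCDHAC1), 0.000259 (PCDHA10), 0.000405 (PCDHA3) and 0.0066 (PCDHA6).

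In PCDHB the adjusted p values were 6.94e-12 (PCDHB8), 2.51e-10 (PCDHB3), 7.83e-10 (PCDHB15), 8.64e-10 (PCDHB5), 5.97e-08 (PCDHB2), 9.41e-08 (PCDHB7), 3.83e-07 (PCDHB16), 7.89e-07 (PCDHB4) and 1.61e-06 (PCDHB12). In PCDHG they were 1.73e-10 (PCDHGC3), 2.32e-10 (PCDHGB6), 5.72e-10 (PCDHGB7), 3.8e-09 (PCDHGB4), 5.39e-09 (PCDHGC4), 7.2e-07 (PCDHGA6), 7.75e-07 (PCDHGA11) and 3.35e-06 (PCDHGA10). PCDHB1 (0.218) and PCDHGB5 (0.224) did not pass.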

How the results depend on the processing

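Fitting the compared libraries alone moved the count of members called to 3 for genotype at day 0 (13 in the full model) and 28 at day 1 (11), and for PERK KO against its day 0 to 22 at day 1 (40), 6 at day 3 (16) and 17 at day 5 (32). Over all genes these fits called 304 of 16248 and 7355 of 16579 for genotype at days 0 and 1. For PERK KO against its day 0 they called 4268 of 16505, 4186 of 16609 and 5973 of 16649 at days 1, 3 and 5. Without both libraries that stood apart the genotype count at day 1 was 20, beside 4931 of 20269 over all genes. In TPM in place of CPM the ratio of PERK KO to wild type was 1.27, 1.58 and 2.13 for PCDHA at days 1, 5 and 10, then 0.675, 0.948, 0.529, 0.740 and 2.14 for PCDHB at days 0, 2, 3, 5 and 10, and 0.734 for PCDHG at day 10. For the non-clustered genes it was 1.08 at day 1, where CPM gave 0.921, and 0.644, 0.726, 1.36 and 2.06 at days 2, 3, 5 and 10. The cause was not tested. Leaving out 1 library gave 7 to 13 members between genotypes at day 0, 8 to 11 at day 1, 29 to 41 at day 2, 29 to 32 at day 3, 30 to 34 at day 5 and 53 to 55 at day 10. Against day 0 the ranges in wild type were 26 to 28, 34 to 37, 34 to 39, 33 to 36 and 39 to 43, in PERK KO 27 to 40, 27 to 36, 12 to 18, 21 to 33 and 54 to 58, and for the interaction 54 to 61. Replicate numbers did not pair the libraries throughout (r from -0.274 to 0.585 over 18 pairs). On day 3, replicates 1 and 3 went with the same number of the other genotype (r = 0.585 and 0.531), and replicate 2 did not (r = -0.0259). With the replicate block the genotype counts were 12, 11, 36, 31, 32 and 53 by day and the interaction 56. Leaving out 1 library lost the call of a named result 61 times, gained it 12 times and left it 1367 times. Otherwise 1 named result lost its call under DESeq2, 1 under a stricter filter, 2 without both libraries that stood apart, 11 with the compared libraries alone, 6 without a filter, 4 under the block and 4 under the length offset, and none called in both settings changed sign.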
